A study of Rattus norvegicus with 18 samples.

Results

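Cultures of clone #4S2 that had received doxycycline for 48 h were compared with untreated cultures of the same age, on 6 of the 18 arrays of the study. These are the 3 arrays titled as 48 h controls and the 3 titled as treated with doxycycline for 48 h, and each treated array was set against the control array with the same number. INS-1 is a rat insulinoma line that makes and secretes insulin. In clone #4S2, 1 clone selected with geneticin and hygromycin and enriched by sorting for green cells, 2 µg/ml doxycycline turns on a mouse insulin 2 with the C96Y substitution fused to EGFP, Ins2 (C96Y)-EGFP. The substitution removes a cysteine of a disulfide bond, so the proinsulin cannot fold in the endoplasmic reticulum (ER). Control cultures carried the same transgene, which is expressed at a low level without the drug, and received no doxycycline. Cells without the transgene were not analysed here, so an effect of doxycycline itself and one of the mutant insulin cannot be told apart. The values are linear signals of an Affymetrix rat array, quantile normalized, and a log2 change is doxycycline minus control averaged over the 3 experiments.

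A β-cell stores insulin and other peptides in dense-core granules, cuts them from their precursors with the convertases encoded by Pcsk1 and Pcsk2, and releases them when closure of the ATP-sensitive potassium channel lets calcium enter. Misfolded proinsulin is sensed at the ER membrane by IRE1, ATF6 and PERK. ATF6 and the IRE1 product XBP1 raise chaperone and degradation genes through the ER stress response element (ERSE), whereas PERK slows translation and raises ATF4 and CHOP (Ddit3), which bind a composite C/EBP-ATF element in genes of amino acid supply and cell death. These responses have been described mostly by the genes that go up, and the genes that go down are given more room here.

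Of 15521 probe sets tested, 361 rose and 185 fell at an adjusted p under 0.05, which is 2.33% and 1.19% of those tested. The 185 lowered probe sets include 157 with a gene, of 137 different genes, and their log2 changes ran from -0.44 to -2.71 with a median of -0.66. The 292 raised probe sets with a gene represent 253 genes, and the median of all 361 was 0.67. The median over all probe sets tested was -0.01. By size alone, 79 probe sets (0.509%) were at least 2-fold higher and 29 (0.187%) at least 2-fold lower in 2 or more experiments. In 164 of the 185 lowered probe sets, all 3 doxycycline arrays lay below all 3 control arrays, which held for 10.8% of the probe sets tested. In 13 raised and 10 lowered probe sets the mean of the lower group over all time points was itself under the filter on dim probe sets, among them those of Slc7a11, Hrk, Hyou1, Serpinb9b and Dxo and of the lowered Rd3. At 48 h alone, the mean of the lower group was under the filter signal (122) in further called genes. Examples are the controls of Trib3 (117.7) and Gpt2 (80.7) and the treated arrays of Cutal (78.7) and Il1r2 (121.8). These counts rest on all 3 experiments. Without experiment 1 the fit called 0 raised and 0 lowered probe sets (1545 and 1586 at an unadjusted p under 0.05), without experiment 2 it called 29 and 7, and without experiment 3 it called 17 and 6.

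The arrays themselves were alike. The 6 arrays had median deposited signals between 113.5 and 128.4, and signals of the 3′ over the 5′ GAPDH control probe sets between 1.07 and 1.17. The β-cell label held, since all 9 of the β-cell markers with a probe set were bright enough to be tested, with a summed signal of 82670 to 91990 in controls and 72610 to 82970 with doxycycline. Ins1, Ins2, Iapp and Slc2a2 carry most of this sum. Of the 9 markers Mafa and Kcnj11 fell, and 7 were lower in all 3 experiments, as were 25.4% of all probe sets tested. The median of the 9 was -0.31. None of 12 acinar and none of 10 macrophage or endothelial markers with a probe set had enough signal to be tested. Of 10 fibroblast markers only Pdgfra and Thy1 were tested, and neither passed.

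**Figure D1:**
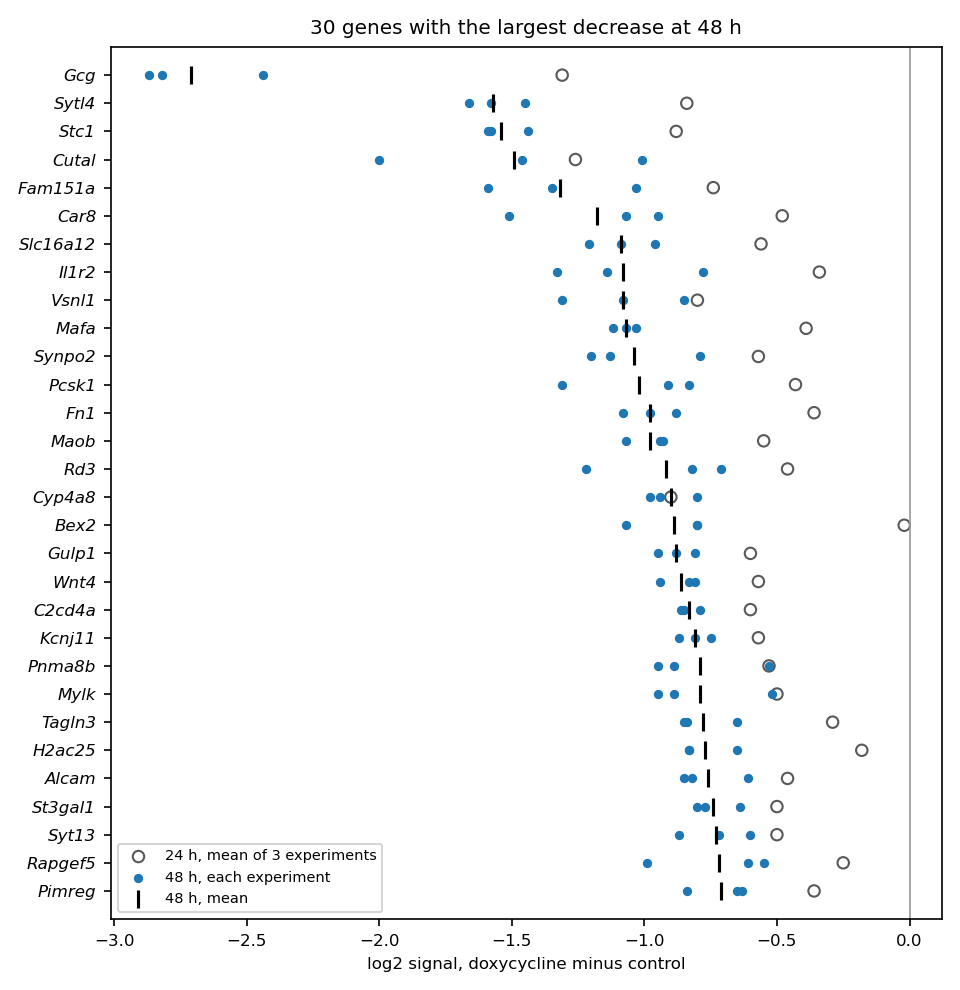
Log2 signal of doxycycline minus control for the 30 named genes with the largest decrease at 48 h, with filled points for each of 3 experiments, a tick for their mean and an open circle for the mean at 24 h. Every filled point lies below 0, from -2.87 for Gcg upwards.

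The largest decrease was that of Gcg, the gene of proglucagon. The 3 controls gave 1909, 1470 and 2057 signal units, and the treated arrays 261.5, 270.6 and 292.1. All 3 treated arrays lay in a narrow range far below the controls, a log2 change of -2.71 ± 0.11 (SE, n = 3, adjusted p = 0.00669). Stc1, which encodes the secreted glycoprotein stanniocalcin-1, had signals of 4127, 5024 and 3676 in controls and 1368, 1675 and 1358 with doxycycline. The groups did not overlap (-1.54 ± 0.08, adjusted p = 0.00669), and 2 further probe sets of Stc1 fell by 1.97 and 1.63 on the log2 scale. Cartpt, the precursor of the CART peptide, fell by a smaller amount (-0.68 ± 0.09, adjusted p = 0.0335), from 472.1, 371.5 and 408.4 to 293.1, 257.8 and 229.5. These were the 3 of 15 tested hormone and granule peptide genes that fell, and 0 rose. The list had a median log2 change of -0.23, and 10 of the 15 were lower in all 3 experiments, as were 25.4% of all probe sets tested.

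The remaining members of this list were below the threshold. Npy, encoding neuropeptide Y, had a log2 change of -0.48 (adjusted p = 0.054) and Iapp, encoding the amyloid peptide stored beside insulin, one of -0.31 (adjusted p = 0.0825). The insulin genes stood near 0. Ins1 gave 17775, 22489 and 21182 in controls and 19539, 22278 and 23710 with doxycycline, overlapping ranges with a log2 change of 0.10 ± 0.08 (adjusted p = 0.498). For Ins2 the change was -0.08 ± 0.07 (adjusted p = 0.529), and no source used here says whether its probe set also reads the mouse transgene. Gcg also marks islet α-cells. Of the 9 markers of other islet cells with a probe set it was the only one tested, the other 8, among them Sst and Ppy, being too dim. The summed signal of the 9 ran from 1727 to 2328 in controls and from 530.6 to 563.7 with doxycycline. Gcg carries most of this sum, so its fall is that of Gcg and not of the other 8. The brightest of those, Ttr, gave 117.7, 88.8 and 102.6 in controls and 120.8, 94.8 and 90.8 with doxycycline. In bulk RNA, fewer cells with a transcript and less of it per cell cannot be told apart.

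**Figure D2:**
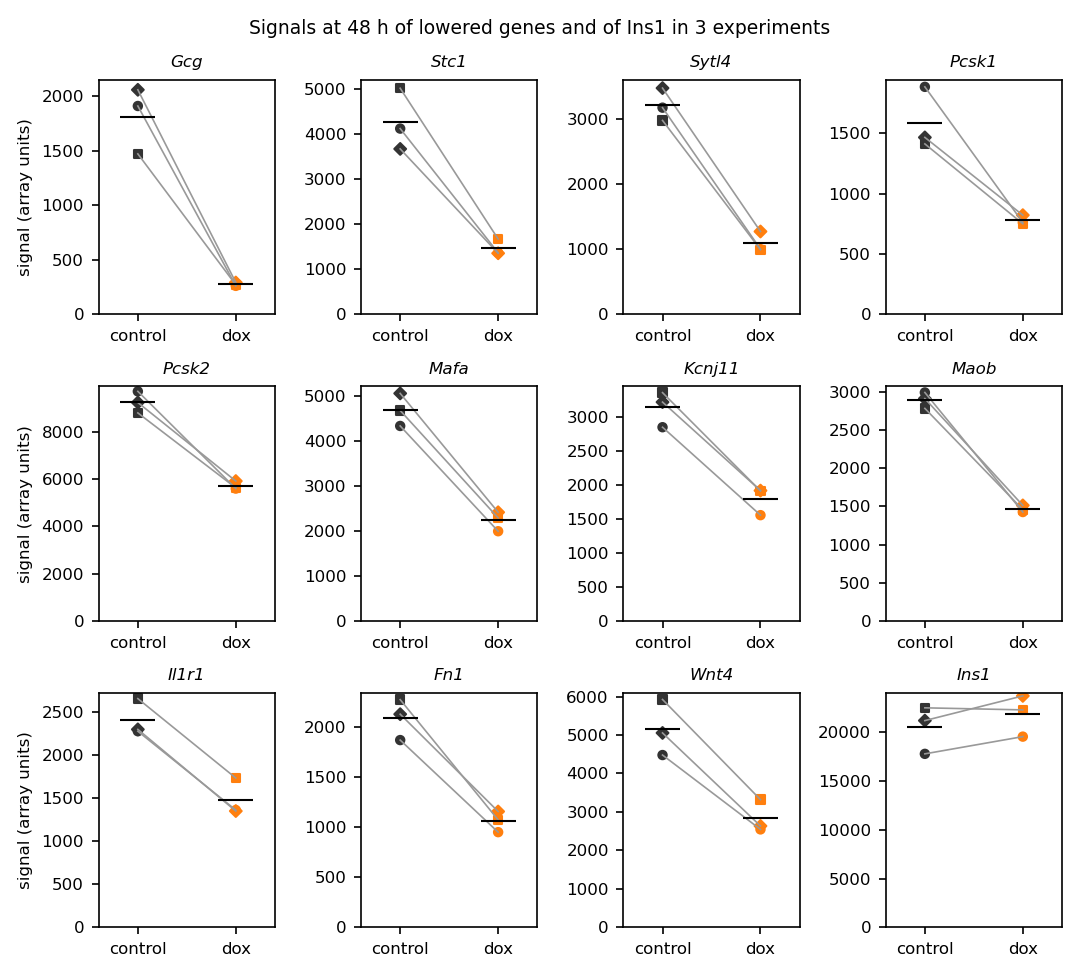
Signals (array units, axes from 0) of 11 lowered genes and of Ins1 in the 3 control and 3 doxycycline arrays at 48 h, with a line joining the arrays of each experiment and a bar at each mean. The treated arrays of the 11 lowered genes lie below every control array, while those of Ins1 overlap the controls.

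Both convertases of the granule fell. Pcsk1 (proconvertase 1/3) had signals of 1883, 1411 and 1464 in controls and 760.8, 749.8 and 821.1 with doxycycline, a log2 change of -1.02 ± 0.12 (adjusted p = 0.0271). Pcsk2 (proconvertase 2) went from 9720, 8807 and 9247 to 5603, 5635 and 5922, a change of -0.69 ± 0.08 (adjusted p = 0.026). Neither gene had overlapping groups. They were the only 2 of 16 tested prohormone processing genes that fell (12.5%, beside 1.19% of all probe sets tested), and 0 rose. Carboxypeptidase E (Cpe), which trims the ends left by the convertases, stood at -0.16 (adjusted p = 0.257), and the list median was -0.11.

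Among 41 tested genes of granule exocytosis 4 fell (9.76%) and 1 rose (2.44%), with a median of -0.07. Of all probe sets tested 1.19% fell and 2.33% rose. Sytl4 encodes granuphilin, the Rab27a effector that docks insulin granules at the plasma membrane. It had signals of 3177, 2981 and 3478 in controls and 1003, 994.9 and 1274 with doxycycline, and no treated array reached the lowest control (-1.57 ± 0.08, adjusted p = 0.00669). Vsnl1, a neuronal calcium sensor, fell from 763.5, 661.8 and 802.7 to 360.4, 367.2 and 323.7 (-1.08 ± 0.11, adjusted p = 0.023), again without overlap. The synaptotagmin gene Syt13 (-0.73, adjusted p = 0.0277) and Cplx2 (-0.65, adjusted p = 0.0428), whose complexin product holds SNARE complexes before fusion, were the other two. Syt4, another synaptotagmin gene, went the other way, from 746.3, 665.9 and 593.5 to 1473, 1355 and 1287 (1.04 ± 0.07, adjusted p = 0.0133). The SNARE genes Snap25 (0.16), Vamp2 (0.13) and Stx1a (-0.29) did not pass.

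Mafa, a transcriptional activator of the insulin gene in mature β-cells, fell from 4333, 4677 and 5057 to 1993, 2290 and 2415. The log2 changes of the 3 experiments lay within -1.12 and -1.03 (-1.07 ± 0.07, adjusted p = 0.0118). It was the only 1 of 27 tested β-cell transcription factor genes to pass (3.7%, beside 1.19% of all probe sets tested that fell). Isl1 (-0.52, adjusted p = 0.0686), Nkx2-2 (-0.45, adjusted p = 0.0615) and Pdx1 (-0.45, adjusted p = 0.0759) did not. Nkx6-1 had a change of 0.17. For Hnf4a the probe set of highest signal stood at 0.11 (adjusted p = 0.438) and another fell by 0.60 (adjusted p = 0.0381), so its probe sets disagree.

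Kcnj11, which encodes the pore subunit Kir6.2 of the ATP-sensitive potassium channel, had signals of 2846, 3354 and 3215 in controls and 1554, 1910 and 1915 with doxycycline. The groups were apart (-0.81 ± 0.07, adjusted p = 0.0187), and its other probe sets fell by 0.93 and 0.99. The regulatory subunit Abcc8 was lower in each experiment, at 2232, 2825 and 2912 in controls and 1547, 2166 and 2211 with doxycycline, but did not pass (-0.44, adjusted p = 0.0548). Of 42 tested channel genes, Kcnj11 alone fell (2.38%, beside 1.19% of all probe sets tested), and 0 rose. Of 33 tested genes of glucose sensing and metabolism 0 fell and 1 rose, namely Fbp2, a fructose bisphosphatase of gluconeogenesis (1.02, adjusted p = 0.0173).

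Signalling genes were counted in the same way. Of 45 tested members of the cAMP and G protein list 4 fell (8.89%, beside 1.19% of all probe sets tested) and 0 rose, with a median of -0.11. In 18 of the 45 all 3 experiments were below 0, as in 25.4% of all probe sets tested. The 4 were Rapgef5 (-0.72), a guanine nucleotide exchange factor for Rap, the α-subunit genes Gnaq (-0.64) and Gnao1 (-0.50), and the cAMP-responsive factor Crem (-0.49), with adjusted p from 0.0366 to 0.0486. The groups of Crem overlapped. Another probe set of Crem fell by 0.72 (adjusted p = 0.0414), and the rest, at -0.28, -0.44 and -0.47, did not pass. The receptor for the peptide PACAP, Adcyap1r1, fell from 239.0, 272.9 and 289.6 to 150.6, 165.3 and 189.9 (-0.67 ± 0.07, adjusted p = 0.0254), the only 1 of 24 tested receptor genes of its list (4.17%). Il1r1, the signalling receptor of interleukin 1, went from 2282, 2661 and 2303 to 1365, 1738 and 1354 (-0.71 ± 0.07, adjusted p = 0.0242). Il1r2, the decoy receptor of the same cytokine, fell as well (-1.08 ± 0.12, adjusted p = 0.0272), and so did Igf1r (-0.58, adjusted p = 0.0486). The 3 receptors had no overlap between groups. Il1r1 and Igf1r were the 2 of 30 tested cytokine and growth factor receptor genes on the list that fell (6.67%), and 1 rose (3.33%), the death receptor gene Tnfrsf21 (0.77, adjusted p = 0.0335). The median of that list was -0.02, and Il1r2 is not on it.

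Of 38 tested genes of cell adhesion and extracellular matrix 4 fell (10.5%) and 1 rose (2.63%), beside 1.19% and 2.33% of all probe sets tested. Fibronectin (Fn1) had signals of 1868, 2271 and 2126 in controls and 949.7, 1072 and 1156 with doxycycline (-0.98 ± 0.08, adjusted p = 0.0143), so that no treated array came near a control. Alcam (-0.76), Robo2 (-0.58) and Ncam1 (-0.56), all cell surface proteins of the immunoglobulin family, were lower by less, and the arrays of Ncam1 overlapped. Wnt4, a secreted Wnt ligand, fell from 4479, 5922 and 5053 to 2547, 3321 and 2636 (-0.86 ± 0.07, adjusted p = 0.0163). It was the only 1 of 17 tested Wnt pathway genes to do so (5.88%), while 1 rose (5.88%), the planar polarity gene Vangl1 (0.83, adjusted p = 0.0187). Amigo3, another adhesion molecule with an immunoglobulin domain, rose (1.25, adjusted p = 0.0271).

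Maob, the mitochondrial monoamine oxidase B, gave 2993, 2784 and 2913 in controls and 1427, 1458 and 1514 with doxycycline, which is close to 2-fold lower in each experiment (-0.98 ± 0.07, adjusted p = 0.0137). The vesicular monoamine transporter Slc18a1 fell as well (-0.65, adjusted p = 0.0434), but its groups overlapped. Cyp4a8, a fatty acid hydroxylase, fell from 698.8, 676.2 and 662.8 to 364.7, 343.0 and 382.0 (-0.90 ± 0.08, adjusted p = 0.0169) and lipoprotein lipase (Lpl) by 0.66. They were the 2 of 30 tested genes of cytochrome P450 and lipid handling that fell (6.67%, beside 1.19% of all probe sets tested). In the same list 2 rose (6.67%, beside 2.33%), G0s2 (1.19, adjusted p = 0.0109), an inhibitor of the lipase ATGL, and the nicotinamide methyltransferase Nnmt (0.85, adjusted p = 0.0176), with a list median of -0.06. Among 33 tested genes of sterol and fatty acid synthesis 0 rose and 0 fell, while 2 rose and 4 fell in the fit with a variance trend. Outside these lists, the large decreases included Car8, a carbonic anhydrase-related protein without the enzyme activity (-1.18), the monocarboxylate transporter Slc16a12 (-1.09), the actin-binding protein Synpo2 (-1.04), Fam151a (-1.32), Cutal (-1.49) and Bex2 (-0.89).

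**Figure D3:**
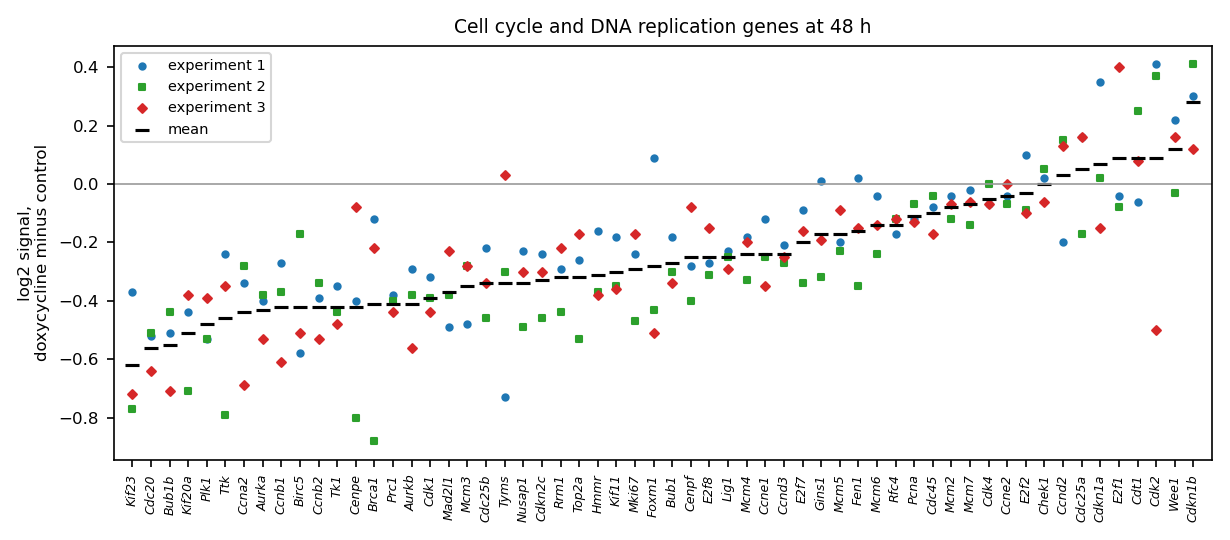
Log2 signal of doxycycline minus control at 48 h for the 58 tested cell cycle and DNA replication genes, with 1 symbol for each experiment and a bar for the mean, in order of the mean. In 42 of 58 genes all 3 experiments are below 0.

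Among the 29 lists other than those of cell type markers, the cell cycle list had the lowest median, -0.28, yet few of its members passed. Of 58 tested genes 3 fell (5.17%, beside 1.19% of all probe sets tested) and 0 rose. A log2 change below 0 was seen in 49, and 42 were below 0 in every experiment, which held for 25.4% of all probe sets tested. Cdc20, an activator of the anaphase-promoting complex, went from 2217, 1724 and 1557 to 1548, 1212 and 998.2 (-0.56 ± 0.07, adjusted p = 0.0347). Its other probe sets stood at -0.37 (adjusted p = 0.139) and -0.20 (adjusted p = 0.6) and did not pass. The checkpoint kinase Bub1b (-0.55), whose groups overlapped, and the mitotic kinase Plk1 (-0.48) also fell. The median was -0.20, -0.33 and -0.22 in experiments 1, 2 and 3. For Kif23, a kinesin of cell division, the brightest probe set stood at -0.62 (adjusted p = 0.0548) and did not pass. Another probe set of Kif23 fell (-0.68, adjusted p = 0.0347), so its probe sets disagree and it is counted as not passing. The helicase gene Mcm2 had a log2 change of -0.08 and did not pass. The inhibitors Cdkn1a (0.07) and Cdkn1b (0.28, adjusted p = 0.143) did not pass. The number of members that fell was 0 with no replicate block, with no filter on dim probe sets, with all 18 arrays in the fit or with any experiment left out, and 1 by the methods' t-test. It was 16 when the 24 h arrays were added to the fit, and 29 with a variance trend or when the filter kept the upper 25 percent.

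**Figure D4:**
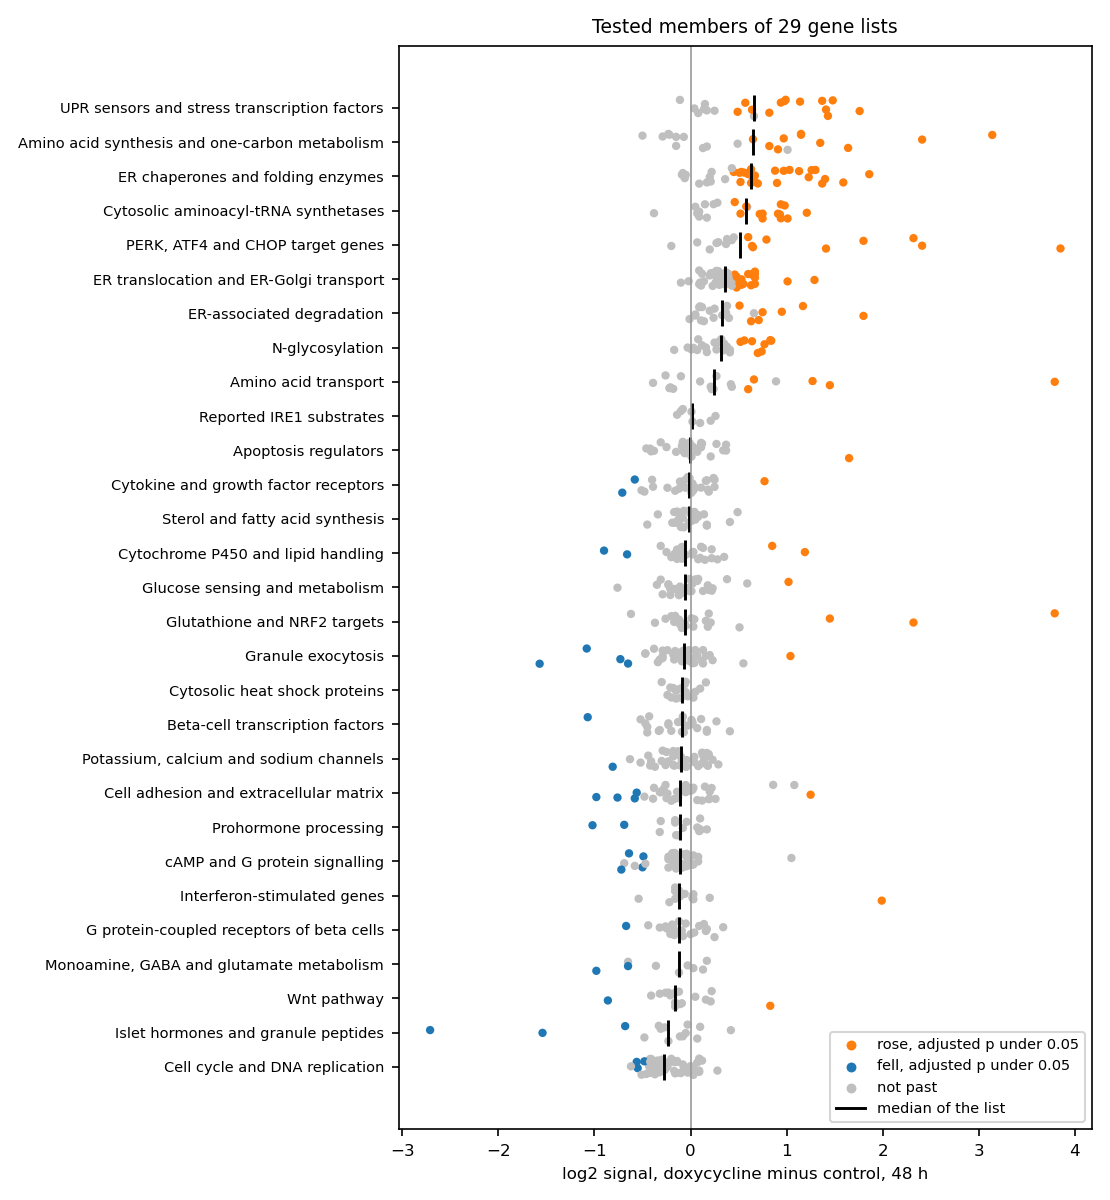
Log2 signal of doxycycline minus control at 48 h for every tested member of 29 gene lists (points, coloured by the call), with a bar at the median of each list and lists in order of that median. The 9 lists of ER stress, amino acid and tRNA synthetase genes have medians from 0.24 to 0.66, and the others lie between -0.28 and 0.02.

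The lists with most raised members were those of the ER and of amino acid supply. Of 35 tested ER chaperone and folding genes 24 rose, beside a background of 2.33%, and 0 fell. Hyou1, 1 of the 24, passed the filter only through its doxycycline arrays. For ER-associated degradation 7 of 23 rose, for translocation and ER-Golgi transport 17 of 52, and for N-glycosylation 8 of 27. Among stress sensors and their transcription factors 13 of 21 rose. The tRNA synthetase list had 13 of 23, amino acid synthesis 10 of 21 and amino acid transport 5 of 19. No member of these lists was called lowered in the main fit. Still, 6 of the 21 synthesis and 4 of the 19 transport genes were below 0 in all 3 experiments, as were 25.4% of all probe sets tested. Under the alternatives with 3 experiments 0 to 3 synthesis genes fell. Cytosolic heat shock proteins differed from the ER chaperones, with 0 of 19 tested genes called and a median of -0.09. In the list of glutathione and NRF2 genes the 3 that rose, Slc7a11, Chac1 and Ggct, belong to cystine uptake or glutathione turnover. The NRF2 targets Nqo1 (-0.62, adjusted p = 0.075), Gclm (-0.08) and Srxn1 (-0.17) did not pass. Slc7a11, counted both here and in amino acid transport, passed the filter only through its doxycycline arrays.

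**Figure D5:**
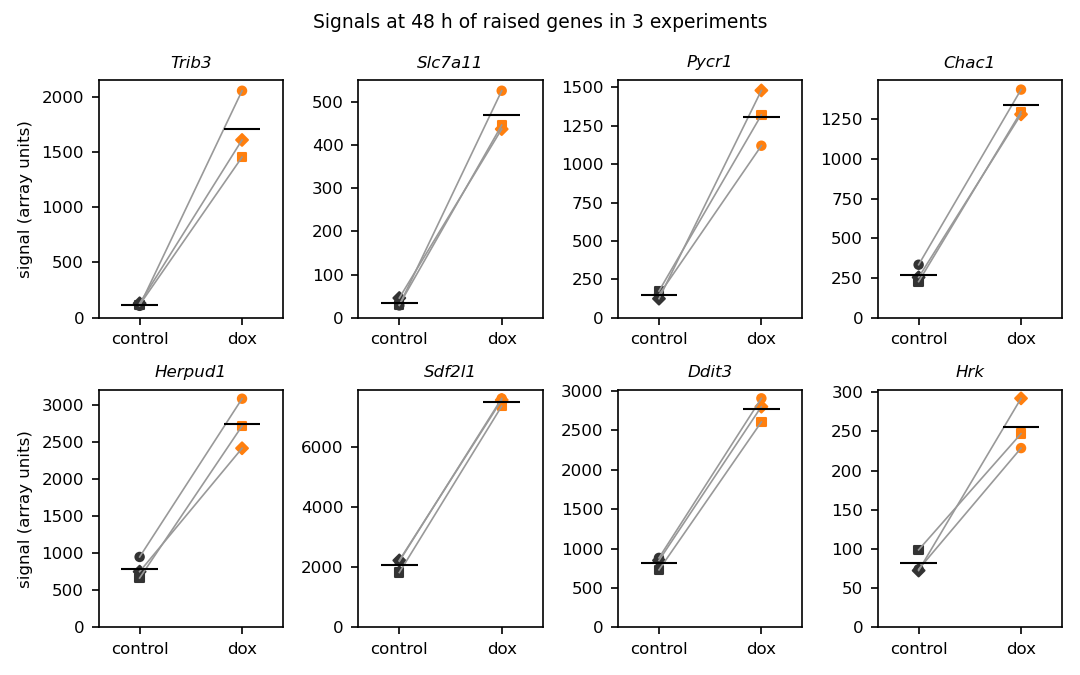
Signals (array units, axes from 0) of 8 raised genes in the 3 control and 3 doxycycline arrays at 48 h, with a line joining the arrays of each experiment and a bar at each mean. All treated arrays of these genes lie above all control arrays.

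Trib3, a pseudokinase induced by ATF4 and CHOP, had signals of 107.0, 116.2 and 129.9 in controls and 2053, 1453 and 1608 with doxycycline (3.85 ± 0.15, adjusted p = 0.00669). The mean of its controls (117.7) is slightly under the filter signal (122). The cystine transporter gene Slc7a11 went from 28.4, 29.8 and 45.6 to 526.6, 446.7 and 437.6, also without overlap. Its control signals lie under the signal of the filter on dim probe sets (122), which it passed through its doxycycline values. Pycr1, the last enzyme of proline synthesis, rose from 148.9, 173.4 and 123.8 to 1120, 1320 and 1480. Herpud1, a component of the degradation machinery of the ER membrane, went from 950.9, 666.2 and 752.3 to 3086, 2718 and 2418 (1.80 ± 0.10, adjusted p = 0.00775). In these 4 genes the lowest treated array stood above the highest control. Of 30 tested apoptosis regulators 1 passed. This was Hrk, a BH3-only protein that opposes BCL2, which rose from 74.1, 98.9 and 72.5 to 228.6, 247.0 and 292.0 (1.65 ± 0.14, adjusted p = 0.0176). Hrk too passed the filter only through its doxycycline arrays, so nothing is read from its count. The interferon-inducible gene Ifi27l2b rose from 1174, 947.2 and 948.4 to 3981, 4189 and 3946, and was the only 1 of 14 tested interferon-stimulated genes that passed.

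Some promoters of the raised genes held short elements known from these pathways, though most did not. The 8 promoters printed here were picked from called genes that carry a match. The 250 bases before the start of each gene, from RefSeq on GRCr8, were searched on both strands. The ERSE was searched as CCAAT, 9 further bases and CCACG, the ERSE-II as ATTGG, 1 base and CCACG, and the C/EBP-ATF composite as TGATG, any base and AA. The UPRE was searched as TGACG followed by TGG, and the cAMP response element as TGACG followed by TCA, so that these share their first letters. Capitals mark every match, on either strand, and in Trib3 also a TGCTGAC, part of a Maf recognition element.
Trib3 (chr3:161275534-161275783, minus strand): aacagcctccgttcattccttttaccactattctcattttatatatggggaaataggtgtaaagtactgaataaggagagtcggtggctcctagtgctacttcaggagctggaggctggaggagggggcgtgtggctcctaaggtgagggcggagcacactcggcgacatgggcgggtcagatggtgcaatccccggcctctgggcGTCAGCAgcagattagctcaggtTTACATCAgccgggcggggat
Pycr1 (chr10:106420813-106421062, minus strand): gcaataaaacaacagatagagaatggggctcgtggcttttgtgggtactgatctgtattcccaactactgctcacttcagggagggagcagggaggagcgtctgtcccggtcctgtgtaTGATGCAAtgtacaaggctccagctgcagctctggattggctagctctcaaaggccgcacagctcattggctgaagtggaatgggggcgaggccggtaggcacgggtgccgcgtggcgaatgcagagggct
Chac1 (chr3:126795881-126796130, plus strand): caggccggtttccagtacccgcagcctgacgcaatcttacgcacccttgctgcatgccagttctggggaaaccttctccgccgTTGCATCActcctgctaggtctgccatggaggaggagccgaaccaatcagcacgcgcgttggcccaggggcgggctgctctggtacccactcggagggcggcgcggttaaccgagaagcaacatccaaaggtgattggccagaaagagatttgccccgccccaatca
Creld2 (chr7:121789134-121789383, plus strand): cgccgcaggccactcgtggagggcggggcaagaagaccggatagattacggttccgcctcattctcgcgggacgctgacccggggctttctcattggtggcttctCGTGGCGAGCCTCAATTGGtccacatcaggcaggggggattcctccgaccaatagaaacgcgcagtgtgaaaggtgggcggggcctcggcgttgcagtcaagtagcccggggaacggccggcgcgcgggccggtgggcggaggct
Dnajc3 (chr15:102432417-102432666, plus strand): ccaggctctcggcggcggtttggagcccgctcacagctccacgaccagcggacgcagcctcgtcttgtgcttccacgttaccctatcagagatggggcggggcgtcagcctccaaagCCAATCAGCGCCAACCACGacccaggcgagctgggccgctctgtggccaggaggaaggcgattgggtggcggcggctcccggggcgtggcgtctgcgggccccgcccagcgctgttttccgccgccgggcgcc
Herpud1 (chr19:10614708-10614957, minus strand): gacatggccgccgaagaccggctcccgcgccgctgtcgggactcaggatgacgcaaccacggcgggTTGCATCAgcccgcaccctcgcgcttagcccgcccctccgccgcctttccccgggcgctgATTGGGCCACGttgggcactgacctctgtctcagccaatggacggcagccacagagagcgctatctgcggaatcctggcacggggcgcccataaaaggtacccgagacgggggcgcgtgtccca
Cartpt (chr2:32991236-32991485, minus strand): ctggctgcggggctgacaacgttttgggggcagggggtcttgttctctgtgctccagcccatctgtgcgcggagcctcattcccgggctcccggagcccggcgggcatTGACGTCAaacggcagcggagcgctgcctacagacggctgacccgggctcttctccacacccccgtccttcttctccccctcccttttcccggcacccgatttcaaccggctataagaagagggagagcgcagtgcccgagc
C2cd4a (chr8:77350922-77351171, minus strand): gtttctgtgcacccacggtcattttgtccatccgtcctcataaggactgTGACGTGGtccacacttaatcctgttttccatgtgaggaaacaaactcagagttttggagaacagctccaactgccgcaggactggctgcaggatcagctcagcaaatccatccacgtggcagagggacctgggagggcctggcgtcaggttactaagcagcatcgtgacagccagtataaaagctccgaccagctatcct

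A promoter was at hand for 203 of 236 genes that rose and 72 of 97 that fell, with each gene taken by its probe set of highest signal, and for 7656 of 9079 genes tested. The ERSE was found in 7 raised genes (3.45%), in 0 lowered genes, in 14 of the tested genes (0.183%) and in 0.0728% of all 27457 promoters. The 7 were the chaperone and folding genes Hspa5, Hsp90b1, Canx, Calr, Creld2, Dnajc3 and Ero1b. The ERSE-II was found in 5 raised genes, in 0 lowered genes, in 0.118% of the tested genes and in 0.0473% of all promoters. The C/EBP-ATF composite was held by 19 raised genes (9.36%), among them Trib3, Pycr1, Chac1, Nupr1 and the tRNA synthetase genes Iars1, Nars1, Tars1 and Mars1. It was held by 0 lowered genes, by 1.61% of the tested genes and by 3.3% of all promoters. Herpud1 held both an ERSE-II and a composite. The UPRE stood in 4 raised genes and in 1 lowered gene, C2cd4a, and in 0.836% of the tested genes and 0.554% of all promoters.

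Among the lowered genes matches were few. The letters of a cAMP response element stood in 4 of the 72 (5.56%), namely Cartpt, Gpr6, Mlf1 and Gnao1, in 6 raised genes (2.96%), in 3.25% of the tested genes and in 1.68% of all promoters. The Maf letters stood in 4 lowered genes (5.56%), 12 raised genes (5.91%), 2.85% of the tested genes and 3.57% of all promoters. Gpr6, Mlf1 and others named here for a motif were chosen after their values were seen. A match describes letters in a window, and a window without one says nothing about binding elsewhere.

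At 24 h, in 6 other arrays, the genes lowered at 48 h mostly had log2 changes below 0 as well. Of the 185 probe sets, 180 had a mean log2 change below 0 at 24 h and 133 were below 0 in all 3 experiments, which held for 19.7% of all probe sets tested. These probe sets were chosen by their values at 48 h, so the sizes of their changes at the 2 times are not compared. At an adjusted p under 0.05, 2 probe sets (0.0129%) fell at 24 h, those of Sytl4 (-0.84, adjusted p = 0.0439) and Cyp4a8 (-0.90, adjusted p = 0.0495), and 30 (0.193%) rose. The means at 24 h and 48 h were -0.90 and -0.90 for Cyp4a8, -1.26 and -1.49 for Cutal, and -0.02 and -0.89 for Bex2. In the test between the times these 3 had adjusted p of 0.993, 0.932 and 0.59. They were named after their values were seen, so early and late genes are not told apart by them. In the test of the difference between the times 0 of 15521 probe sets passed (1036 at an unadjusted p under 0.05, smallest adjusted p 0.59). With a variance trend 3 passed, Sytl4 (-0.72), Mafa (-0.68) and the raised Ifi27l2b (0.99). For Mafa the changes were -0.30, -0.28 and -0.59 at 24 h and -1.12, -1.03 and -1.07 at 48 h. Experiment 2 of 24 h correlated best with experiment 1 of 48 h (0.990 for the controls), and no source used here says whether they share cultures.

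The spread between experiments was similar at both times. The median over probe sets of the SD of the 3 log2 ratios was 0.149 at 48 h and 0.14 at 24 h. The ratios of all 3 experiments had the same sign in 48.2% of probe sets at 48 h and 38.1% at 24 h. Where a lowered gene had 2 or more tested probe sets, all of them had a log2 change below 0 in 57 of 64 genes. All of them passed in 10 of the 64. Each of these genes was chosen for a lowered probe set, and no share over all genes was counted. The 57 thus does not measure agreement between probe sets.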

How the data were processed

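Total RNA of 3 control and 3 doxycycline cultures of clone #4S2 at 48 h, from independent experiments, had been hybridized to Affymetrix rat genome arrays. The authors deposited 1 linear signal intensity per probe set and array, with a 2% trimmed mean per array of 500.14 to 500.17. No source used here explains that value or names the program and background correction that made the signals, and precision is limited by the number of arrays. Of 31099 probe sets, 57 controls were left out. The intensities of all 18 arrays were quantile normalized, given a floor at the 10th percentile (5.99) and log2 transformed. After the dimmer 50 percent had been removed, 15521 probe sets were fitted with limma (version 3.58.1, R 4.3.3) with the experiment as a block. The threshold was an adjusted p (Benjamini-Hochberg) of 0.05. The times were compared by a contrast in a fit of the 24 h and 48 h arrays. The blocks follow the replicate numbers of the labels. After subtraction of the group means, same-numbered arrays correlated at 0.578, 0.256 and 0.359. Control 2 with doxycycline 3 gave 0.218 and control 3 with doxycycline 2 gave 0.0996, while arrays numbered 1 correlated negatively with other numbers. The correlations thus set experiment 1 apart but separate 2 from 3 only weakly. The pairs rest on the numbers of the labels.

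The platform annotation gives 1 gene to 20826 probe sets, several to 436 and none to 9780. Of the first, 20758 matched RefSeq (GRCr8) by gene number, and 9 unnamed probe sets took the name in the study's supplement, among them those of Pcsk1, Pycr1, Ddit3 and 1 of Alcam. Each gene takes the values of its brightest probe set on average. The 34 lists hold 1258 genes, of which 1131 have a probe set and 774 were tested. The members, lists and motifs were chosen with earlier results of these data known. Lists were counted and not tested. Named genes are the 30 largest decreases and 20 largest increases past the threshold with the same sign in 3 experiments, the 5 largest changes and every lowered gene of each list, and genes that the study names at 48 h; others were named after their values were seen. Fits were tested on simulated data. The alternatives changed the normalization, filter, floor, block, arrays and variance model, ran the methods' t-test, and left out each experiment. Tables and figures were made in Python 3.11.15.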

Additional observations from a re-analysis of the deposited data

Results flagged for a closer look

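In 2 named genes, taken by their brightest probe set, every experiment had a log2 change below 0 at 24 h and above 0 at 48 h. Neither passed the test at 48 h. Cpt1a, the carnitine palmitoyltransferase of fatty acid oxidation, had log2 changes of -0.05, -0.06 and -0.01 at 24 h and a mean of 0.35 at 48 h (adjusted p = 0.0715). The difference between the times was 0.39, with an adjusted p of 0.59. Another probe set of Cpt1a stood at -0.21, -0.23 and 0.09 at 24 h, so it did not share the pattern. Pcsk4, a convertase gene, had changes of -0.15, -0.18 and -0.20 at 24 h and a mean of 0.17 at 48 h (adjusted p = 0.262), a difference of 0.34 with an adjusted p of 0.663.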

How the results depend on the processing

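The order is raised and then lowered probe sets, against 361 and 185. The fit called 208 and 67 with no replicate block for the pairing, 825 and 783 in the upper 25 percent of signal, 876 and 734 with the 24 h arrays added, 1169 and 1231 with a variance trend, and 121 and 41 by the methods' t-test after adjustment (1264 and 1082 before). It called 0 and 0 without the filter on dim probe sets (1869 and 1724 unadjusted) and 0 and 0 with all 18 arrays (1014 and 801 unadjusted), and the cause was not tested. Deposited signals without quantile normalization gave 389 and 230. Leaving out 1 experiment gave 0 to 29 and 0 to 7. The 2-fold counts, 79 and 29, were 1322 and 1255 without the filter and 41 and 9 in the upper 25 percent, and 50 to 62 and 16 to 20 with an experiment left out. The difference between 48 h and 24 h called 3 probe sets with a variance trend and 0 in the other alternatives.

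Of the 116 named genes past the threshold, 28 were lost without the block, 69 by the methods' t-test, 91 to 116 with an experiment left out, all 116 without the filter and all 116 with 18 arrays, and 0 with deposited signals. Each of the 30 leading lowered genes passed in 6 to 11 of the alternatives. Under the alternatives with 3 experiments, members that fell numbered 0 to 9 for hormones, 0 to 5 for prohormone processing, 0 to 12 for exocytosis, 0 to 9 for cAMP signalling, 0 to 8 for adhesion, 0 to 8 for β-cell transcription factors and 0 to 29 for the cell cycle, and members that rose 0 to 28 for ER chaperones. By their brightest probe sets, the signs of Dnajc10 (-0.15 to 0.04), Gbp2 (-0.14 to 0.57), Pdgfra (-0.21 to 0.04) and Thy1 (-0.12 to 0.13) depended on which experiment was left out. These genes had not passed. Another probe set of Dnajc10 was above 0 in each experiment (0.36, 0.20 and 0.38, mean 0.31, adjusted p = 0.0945), so its probe sets disagree. Genes of low signal were not tested.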

Other observations

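Lowered genes outside the lists are named here after their values were seen, with no list of their kind fixed or counted. Among those whose products bind or regulate actin, besides Synpo2, were Mylk, the myosin light chain kinase (-0.79 ± 0.11, adjusted p = 0.037), Tagln3 (-0.78, adjusted p = 0.0233), the tropomodulin gene Tmod1 (-0.66, adjusted p = 0.035), Cotl1 (-0.66, adjusted p = 0.0249), and the coronin genes Coro1a (-0.64, adjusted p = 0.043) and Coro7 (-0.49, adjusted p = 0.0404). In the tropomyosin gene Tpm3, 1 probe set fell by 0.54 (adjusted p = 0.0335) and the others did not pass. Histone genes H2ac25 (-0.77), H3c1 (-0.60) and H1f2 (-0.48) fell, as did Pimreg (-0.71), Kif22 (-0.51) and Pttg1 (-0.47).

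Some lowered calls rest on a probe set that is not the brightest of its gene. For Gnas, the gene of the stimulatory G protein, the brightest probe set stood at -0.04 (adjusted p = 0.773) and another fell by 0.59 (adjusted p = 0.0458). For Gad1 the values were -0.12 and -0.58. These genes are counted as not passing in their lists.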
